A study of Mus musculus with 125 samples.

Results

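A set of 10 genes that encode ligands of natural killer (NK) cell receptors or adhesion molecules was followed through chromatin accessibility data of mouse B-ALL cells (acute lymphoblastic leukaemia of the B lineage): Raet1d, Raet1e, H60b, H60c, Ulbp1, Pvr, Nectin2, Cd48, Icam1 and Clec2d. Their peaks were chosen by position alone, as the consensus peaks whose centre lay within 3 kb of a transcription start site (TSS) of 1 of these 10 genes in the GENCODE M21 annotation of GRCm38. This gave 22 of 256400 consensus peaks, or 22 of the 64562 that lay this close to any TSS. Because 1 peak lay near a start of both H60b and Raet1e, there were 23 pairs of gene and peak. Of the 22 peaks, 13 were tested in lines A and B, 13 in lines C and D, and 14 in either, and 9 of the 10 genes had a tested peak. H60c had none. Peaks are named here by gene and by the distance in bp of the peak centre from the nearest TSS of that gene, with a minus sign for upstream.

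NK cells are innate lymphocytes that weigh activating against inhibitory signals from ligands on a target cell. NKG2D, an activating receptor, binds MHC class I-like proteins that stressed or transformed mouse cells display, among them the RAE-1 family (Raet1d, Raet1e), the H60 proteins (H60b, H60c) and MULT1 (Ulbp1). DNAM-1, another activating receptor, binds CD155 (Pvr) and CD112 (Nectin2), and CD155 is also bound by the inhibitory receptor TIGIT. CD48 (Cd48) is the ligand of 2B4, a receptor that can activate or inhibit mouse NK cells, and ICAM-1 (Icam1) is the ligand of the integrin LFA-1, through which NK cells adhere to their targets. Clec2d encodes Clr-b, the ligand of NKR-P1B, which is an inhibitory receptor, so a description as a ligand of an activating receptor does not hold for it.

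The assay was ATAC-seq, in which a transposase inserts sequencing adapters into open DNA. All cells were B-ALL lines made from wild-type mouse bone marrow with the BCR/ABLp185 fusion kinase and labelled with DNA barcodes and GFP, and the study chose the parental lines for their susceptibility to NK cells. Lines A and B came from 1 parental line and lines C and D from another, so a contrast of A/B with C/D is one between parental lines. There were 3 arms, leukaemia cells kept with IL-2-activated primary mouse NK cells (B-ALL + NK) and sampled at an early (TP1) or a late time point (TP2), and leukaemia cells kept without them (B-ALL alone) and sampled at TP1. By the labels TP1 fell on day 4 and TP2 on day 10, while experiment 9.7 used days 6 and 16, and for the day 10 experiments the methods give a later day for TP2 than the labels do. As B-ALL alone was sampled at TP1 only, length of culture and NK exposure cannot be told apart at TP2. The 14 combinations of cell line and experiment (6 of A/B, 8 of C/D) in 3 arms made 42 groups, 41 of 3 libraries and 1 of 2.

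Total counts in consensus peaks were 3083547 to 13580746 over the 125 libraries. In 2 groups of line C a pair of libraries differed by less than sampling noise allows (ratio of chi-square to its degrees of freedom 0.822 and 0.851, against 1.12 or more for all other pairs), and each pair was averaged and counted as 1 sample, leaving 54 samples of A/B and 69 of C/D. All 8 B-ALL marker genes had a promoter peak, with a summed level of 341 to 812 CPM (read pairs scaled to a common library size) per sample. Of 10 NK cell marker genes, 6 had a promoter peak (Ncr1, Klrk1, Ifng and Cd226 had none) and 0 were called in an NK comparison, with a summed median of 42.9 CPM at NK TP1, 41.2 CPM at NK TP2 and 38.2 CPM alone in A/B, and of 33.5, 32.0 and 32.0 CPM in C/D in the same order of arms. Of those tested, Prf1, the perforin gene of cytotoxic lymphocytes, passed the adjusted p as higher at NK TP1 in A/B (3.19 against 2.26 CPM alone, log2 fold change 0.44, edgeR adjusted p = 0.00966) and as lower at TP2 than at TP1 (−0.47, 0.0133), and no other did. In these directions 17.8% and 9.91% of all tested promoter peaks passed. The other markers tested in A/B, Eomes, Klrb1c and Tbx21, had log2 fold changes of 0.04, −0.03 and −0.08 at NK TP1. Gzma, which encodes a granzyme of cytotoxic lymphocytes, averaged 1.28 CPM at NK TP1 against 0.603 CPM alone in A/B, and was not tested in either pair. Gzmb, another granzyme gene, averaged 3.455 against 1.894 CPM and was not tested in A/B. By the methods, tumour cells were sorted on GFP before the assay, a step that removes NK cells. The part of any remaining NK cell DNA in the results was not tested.

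Sequence is shown first for the promoters on which the reading of the data turns. The RefSeq promoter table for GRCm38.p6 (250 bases before to 50 bases after a gene's start) held 9 windows of 8 of the 10 genes, with Raet1e present in 2 windows. The downstream Raet1e window, chr10:22173247-22173546, and the Raet1d window, chr10:22361644-22361943, both on the plus strand, are shown because they are near copies, with 295 of 302 aligned columns identical (97.7%). Capitals mark the 5 letters of each window that have no identical partner in the other, gaps included.
Raet1e: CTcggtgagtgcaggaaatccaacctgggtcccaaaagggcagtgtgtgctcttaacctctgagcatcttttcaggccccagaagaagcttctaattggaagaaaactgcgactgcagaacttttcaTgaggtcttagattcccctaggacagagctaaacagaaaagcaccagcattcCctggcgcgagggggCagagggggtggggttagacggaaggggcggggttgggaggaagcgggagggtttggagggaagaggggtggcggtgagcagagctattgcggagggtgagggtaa
Raet1d: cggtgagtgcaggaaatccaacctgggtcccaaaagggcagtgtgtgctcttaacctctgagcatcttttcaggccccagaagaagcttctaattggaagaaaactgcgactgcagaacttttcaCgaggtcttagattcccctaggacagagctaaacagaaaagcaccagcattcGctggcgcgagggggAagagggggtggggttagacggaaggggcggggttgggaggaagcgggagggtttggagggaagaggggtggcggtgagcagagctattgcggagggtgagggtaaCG
Through this likeness the peaks over both windows share sequence. Of all stretches of 50 bases in the Raet1e −273 peak (chr10:22172008-22174489), 40.7% were unique in the genome and 53.7% also lay in the Raet1d −31 peak, and of those in Raet1d −31 (chr10:22360265-22363461) 38.2% were unique. Per the file headers, reads were counted without the option that includes multi-mapped reads, so reads from the shared stretches may be missing from both counts, and levels of this pair are uncertain. In the GENCODE annotation, Raet1e extends over H60b and Raet1d, so a peak here cannot be given to 1 gene by position alone. The Icam1 +294 (chr9:21014690-21017869), Nectin2 −316 (chr7:19749035-19750743), Pvr +308 (chr7:19920043-19921567) and Pvr −245 (chr7:19910475-19911743) peaks were unique throughout.

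The window of Clec2d (chr6:129180365-129180664, plus strand) is shown because it held a match to the interferon-stimulated response element (ISRE, by its consensus), searched on both strands. No other of the 9 windows held an ISRE match, and none held one to the NF-kappaB site, by its consensus, or to an E2F site (TTTNNCGC). Only full matches were counted, so a site that departs from these letters would be missed, and the absence of a match is not the absence of a site. Capitals mark the ISRE-like letters, which begin at −189 from the start.
Clec2d: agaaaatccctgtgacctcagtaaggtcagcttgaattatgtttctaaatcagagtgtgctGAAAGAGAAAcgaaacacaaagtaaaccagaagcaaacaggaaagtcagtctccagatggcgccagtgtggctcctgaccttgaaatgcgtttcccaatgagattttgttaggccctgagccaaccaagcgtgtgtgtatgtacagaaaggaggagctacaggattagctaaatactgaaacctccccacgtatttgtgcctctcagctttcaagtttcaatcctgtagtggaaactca
Of 32851 windows in the table, 3.44% held an ISRE match, 4.51% a kappaB match and 5.17% an E2F match. A match is a description of letters and not of binding.

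In cultures alone, the level of the member peaks spanned more than an order of magnitude. On the scale of CPM per kb of peak, which divides by the length of the peak, the mean over the 14 combinations was 19.9 ± 2.78 (SD) for Clec2d −197, the peak at the start of the gene for the inhibitory ligand Clr-b. Icam1 +294 came next at 13.4 ± 1.46 CPM per kb. The main promoter peaks of the DNAM-1 ligand Pvr (+308) and of Cd48 (−195) followed at 10.7 ± 1.05 and 10.4 ± 1.07 CPM per kb, a gap smaller than their spread. The Cd48 peak (chr1:171680700-171682928) also lies within 3 kb of the starts of A630035G10Rik and Gm37981, and Pvr +308 near that of Gm16251, and as reads were counted without strand these genes cannot be separated. Nectin2 −316 at 7.67 ± 1.19, H60b/Raet1e +325 at 7.31 ± 0.538 and Ulbp1 +1070 at 6.86 ± 1.35 CPM per kb did not differ among themselves beyond the spread. This order depends on the scale, which lowers long peaks. In CPM, Icam1 +294 was highest, with means of 45.1 (A/B alone) and 40.5 (C/D alone), above Clec2d −197 with 36.7 and 31.2. Ulbp1 +1070, with 36.3 and 27.5 CPM, stood above Cd48 −195 with 23.6 and 22.9 CPM.

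Of the RAE-1 gene promoters, the shared H60b/Raet1e +325 peak over the upstream Raet1e window stood higher in this order than the 2 peaks over the near-copy windows. Raet1d −31 had 1.93 ± 0.346 and Raet1e −273 had 1.08 ± 0.420 CPM per kb, values that may be understated by the shared sequence. H60c, the ligand whose only peak is a 228 bp interval at +1418 in an intron (chr10:3266219-3266446), had 1.13 ± 0.745 CPM per kb. This peak held 0 to 10 read pairs per sample and a broad peak was called over it in 1 of 125 libraries, and the promoter window of H60c overlapped no member peak. Ulbp1 +1070 (chr10:7469992-7474551), at 4560 bp the longest of the 22, was by contrast called in 125 of 125 libraries, as were Cd48 −195, Clec2d −197, Icam1 +294, Nectin2 −316 and Pvr +308. H60b/Raet1e +325 was called in 124, Pvr −245 in 120, Raet1e −1933 in 118, Raet1d −31 in 117, H60b −2194 in 114 and H60b +445 in 88. The last 2 tested peaks, Raet1e −273 and Clec2d +2899, were each called in 23 of 125, and the 8 peaks that were not tested in 1 to 5 libraries each.

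**Figure D1:**
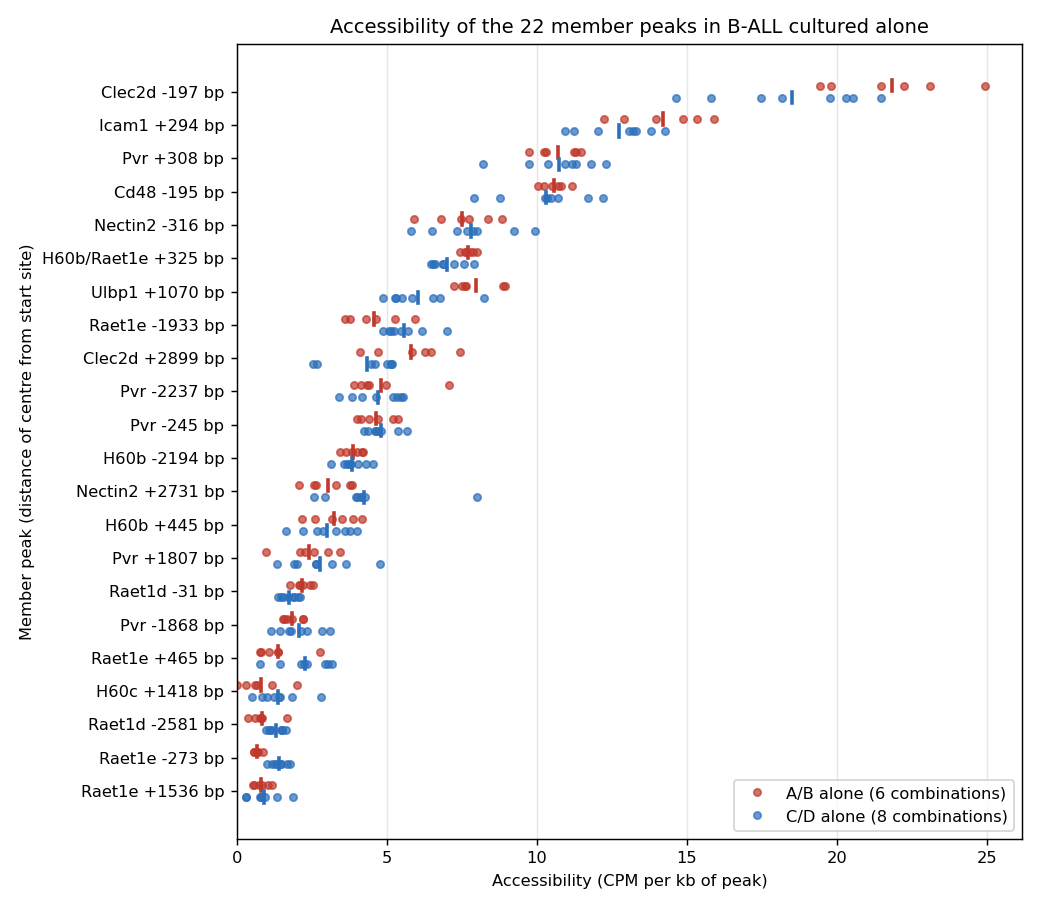
Accessibility of all 22 member peaks in B-ALL alone, in CPM per kb of peak on a linear axis. Each point is the mean of 1 combination of cell line and experiment (6 of A/B above, 8 of C/D below) and each bar the mean over combinations. Clec2d −197 lies at the top with 14.6 to 24.9 CPM per kb, and Raet1e −273 near the bottom with 0.559 to 1.76 CPM per kb.

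The first comparison asked how the ligand promoters differed between the parental backgrounds before any NK exposure. In A/B alone against C/D alone, 1 of 14 tested member peaks was called at an adjusted p of 0.05 or less with a log2 fold change of at least 0.58 in size, where 12.1% of all tested promoter peaks were called (2.86% up and 9.24% down). The called peak was Raet1e −273, over the near copy of the Raet1d promoter shown above. It had a broad peak called in 0 of 18 libraries of A/B alone and in 5 of 23 of C/D alone, so it entered the test through C/D only, where its level is higher, and its values are given as a description. Of the 12 member peaks tested in both pairs 0 were called, where 7.79% of all such peaks were. The level of Raet1e −273 was 0.678, 1.55 and 2.55 CPM (lowest, median, highest of 18 samples) in A/B alone, against 1.79, 3.31 and 5.50 CPM (22 samples) in C/D alone. Single samples overlapped, but the means of the combinations did not, with 1.39 to 2.18 CPM in A/B and 2.48 to 4.37 CPM in C/D. The log2 fold change was −0.96 ± 0.13 (SE), a ratio of 0.514, and −0.88 with no filter on peaks. The consensus interval itself still came mainly from broad peaks called in C/D, so the value with no filter is a description too.

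As a description, Raet1e −273 was lower in A/B alone in every experiment with both backgrounds, a direction that its entry through C/D favours. In experiment 9.5 the means were 1.40 (A) and 1.62 (B) CPM against 2.48 (C) and 3.34 (D) CPM. In experiment 9.6 they were 2.18 (A) and 1.73 (B) against 4.15 (C) and 3.61 (D) CPM, and in experiment 9.7 they were 1.66 (A) and 1.39 (B) against 2.94 (C) and 3.61 (D) CPM. These are low counts, with a median of 12.5 read pairs per A/B sample and 24 per C/D sample. Raet1d −31, the peak over the near-copy promoter window, went the other way, with 6.97 ± 0.898 CPM in A/B and 5.59 ± 0.869 CPM in C/D (SD over 6 and 8 combinations). The difference was 0.31 ± 0.09 on the log2 scale (edgeR adjusted p = 0.00388, and 0.169 without the replicate 2 libraries). The 2 peaks share only part of their sequence (above).

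By the adjusted p alone, 7 of the 14 peaks passed in this comparison, where 52.9% of all tested promoter peaks did so. Of the 12 tested in both pairs, 5 passed (background 51.2%), 4 of them higher (31.6%) and 1 lower (19.6%) in A/B. The higher ones were Ulbp1 +1070, the gene for the NKG2D ligand MULT1 (log2 fold change 0.37 ± 0.05, adjusted p = 6.09e-08), Clec2d −197 (0.27 ± 0.05), Raet1d −31 and Icam1 +294 (0.18 ± 0.05). The intronic Clec2d +2899 (chr6:129182545-129184483) had 0.49 ± 0.08, but it entered the test through A/B only, where it is higher, so this is a description. Ulbp1 +1070 had 28.2, 35.4 and 43.0 CPM (lowest, median, highest) in A/B alone against 21.4, 26.4 and 41.8 CPM in C/D alone, and the samples overlapped over most of this span. Raet1e −1933 (chr10:22163036-22164375) was the lower peak (−0.24 ± 0.09, adjusted p = 0.0172), and 5 of its alternatives lost the adjusted p, with values of 0.0611 to 0.276. The Icam1 difference lost it with a loess scaling (0.0744). The median log2 fold change over the 12 peaks was 0.10, against 0.04 over all 19418 tested in both pairs. Pvr +308, Nectin2 −316 and Cd48 −195 did not pass the test, with log2 fold changes of 0.06 ± 0.06, −0.07 ± 0.08 and 0.10 ± 0.05.

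The sister lines were compared as a measure of how far cultures of 1 parent drift apart. No member peak was called in A against B or in C against D (edgeR and DESeq2 0 of 14 each, with 1 and 2 peaks at an unadjusted p under 0.05), where 0.625% and 0.94% of all tested promoter peaks were called. In both pairs 1 peak passed the adjusted p alone (background 1.52% and 2.11%), and it was H60b +445 (chr10:22272772-22274810), an intronic peak of the NKG2D ligand gene H60b. It had 6.86, 7.58 and 10.5 CPM (lowest, median, highest of 9 samples) in A, against 4.16, 5.23 and 6.64 CPM in B, and the 2 lines did not overlap. The log2 fold change was 0.53 ± 0.14 (adjusted p = 0.0353). In C it had 2.61, 5.24 and 7.64 CPM, against 4.90, 6.83 and 9.99 CPM in D (11 samples each), with overlap and a log2 fold change of −0.50 ± 0.14 (adjusted p = 0.0348). Neither difference kept the adjusted p when any replicate number was left out, with values of 0.202 to 0.367 in A against B and 0.188 to 0.27 in C against D, although the log2 fold changes stayed at 0.53 to 0.54 and at −0.54 to −0.44.

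The main comparison asked whether the ligand promoters changed in leukaemia cells that had lived with NK cells. No member peak was called in B-ALL + NK against B-ALL alone, at either time point or in either pair of lines. In A/B, edgeR called 0 of 13 peaks at TP1 and 0 of 13 at TP2, where 3.89% and 3.63% of all tested promoter peaks were called. In C/D it called 0 of 13 at TP1 and 0 of 13 at TP2, where 1.01% and 1.78% were called. DESeq2 also called 0 in all 4, and 3, 3, 4 and 4 peaks had an unadjusted p under 0.05. The median log2 fold change over the member peaks was −0.03 and −0.06 in A/B at TP1 and TP2 and −0.04 and −0.07 in C/D, against 0.00, −0.01, −0.01 and 0.00 over all tested peaks. The 95% interval of the log2 fold change lay within 0.58 in both directions for 12 of 13 peaks in A/B at TP1, the exception being Clec2d +2899, and for 13 of 13 in each of the other 3 comparisons. In bulk cells, fewer cells with an open site and less accessibility per cell cannot be told apart.

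**Figure D2:**
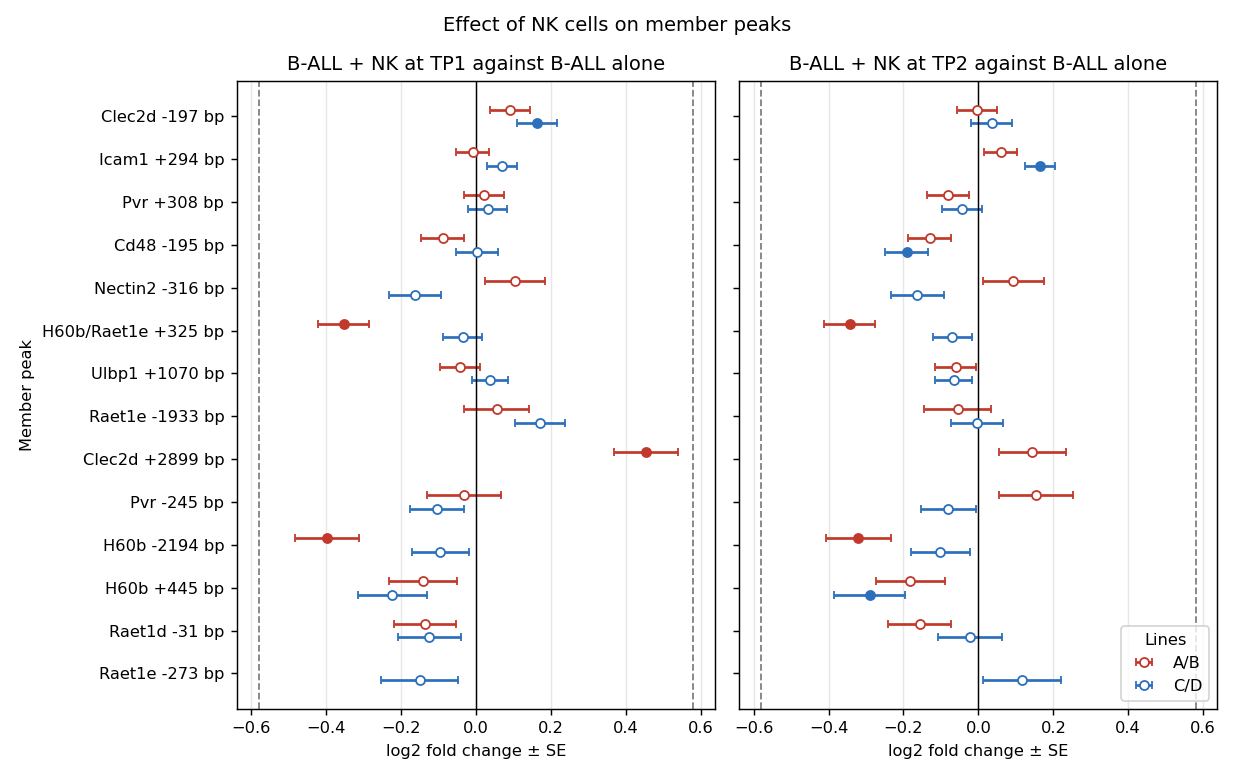
Log2 fold change ± SE of the 14 tested member peaks in B-ALL + NK against B-ALL alone at TP1 (left) and TP2 (right), A/B above C/D. Filled points have an adjusted p of 0.05 or less and dashed lines mark 0.58 in both directions. No point passes both thresholds, and the points farthest from 0 are Clec2d +2899 (0.45) and H60b −2194 (−0.40) in A/B at TP1.

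Smaller differences passed the adjusted p alone. In A/B, 3 of 13 passed at TP1 (background 37.9%), 1 higher and 2 lower (background 17.8% and 20.1%). At TP2, 2 of 13 passed (background 19.6%), both lower (background 9.79% higher and 9.78% lower). The peaks were Clec2d +2899 (higher at TP1) and 2 that were lower at both time points, H60b −2194 and H60b/Raet1e +325. H60b/Raet1e +325 (chr10:22157909-22159913) is the peak over a start of both NKG2D ligand genes. In A/B it had 9.01, 11.8 and 17.7 CPM (lowest, median, highest of 18 samples) at NK TP1 and 8.53, 11.8 and 15.2 CPM at NK TP2, against 11.7, 15.2 and 19.4 CPM alone. The arms overlapped between samples, but the mean was lower with NK cells in 6 of 6 combinations at both time points. The log2 fold change was −0.35 ± 0.07 at TP1 (edgeR adjusted p = 2.64e-05; 2.65e-06 to 0.00791 under the alternatives) and −0.34 ± 0.07 at TP2 (9.3e-05; 1.63e-05 to 0.0119), ratios of 0.783 and 0.788.

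H60b −2194 (chr10:22270403-22271902), an intronic peak upstream of another H60b start, gave similar values in A/B. It had 3.19, 4.17 and 7.09 CPM at NK TP1 and 3.20, 4.53 and 6.58 CPM at NK TP2, against 4.59, 5.92 and 7.44 CPM alone. The means were lower with NK cells in 6 of 6 combinations at TP1 and 5 of 6 at TP2, and samples of the arms overlapped. The log2 fold change was −0.40 ± 0.09 at TP1 (adjusted p = 0.000171) and −0.32 ± 0.09 at TP2 (0.00476; 0.127 without the replicate 1 libraries). Promoter peaks of B-ALL marker genes were also lower in A/B at TP1, and fewer of them at TP2. In A/B, 7 of 8 passed the adjusted p as lower at TP1 (median log2 fold change −0.305) and 3 of 8 at TP2 (−0.131). Their summed level was 364 to 575 CPM at NK TP1 and 360 to 723 CPM at NK TP2 against 415 to 812 CPM alone. The medians of this sum were 489 CPM at NK TP1 and 538 CPM at NK TP2 against 515 CPM alone, so at TP2 the median was not lower. In C/D, 0 of 8 passed at TP1, and at TP2 2 of 8, Cd79a (0.28) and Igll1 (0.22), passed as higher (medians 0.04 and 0.13). The part of these shifts in the H60b results was not tested.

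In C/D neither of these peaks passed the test. H60b/Raet1e +325 had 10.6, 13.1 and 19.0 CPM at NK TP1 (24 samples) and 10.8, 13.4 and 17.7 CPM at NK TP2 (23 samples), against 12.2, 13.6 and 17.3 CPM alone (22 samples), with log2 fold changes of −0.04 ± 0.05 (TP1) and −0.07 ± 0.05 (TP2). H60b −2194 was at −0.10 ± 0.08 at both time points. The difference in NK effect, A/B minus C/D, was tested in 1 fit over all samples. No member peak was called (edgeR and DESeq2 0 of 14 at each time point, with 4 peaks each at an unadjusted p under 0.05), where 2.17% of tested promoter peaks were called at TP1 and 2.7% at TP2. H60b/Raet1e +325 alone among the members passed the adjusted p, where 14.9% and 16.9% of all tested peaks did so, with a difference of −0.32 ± 0.08 at TP1 (adjusted p = 0.00634) and −0.29 ± 0.09 at TP2 (0.0107). Both lost it without the replicate 1 libraries (0.56 and 0.243), and under the alternatives the difference lay between −0.44 and −0.25.

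**Figure D3:**
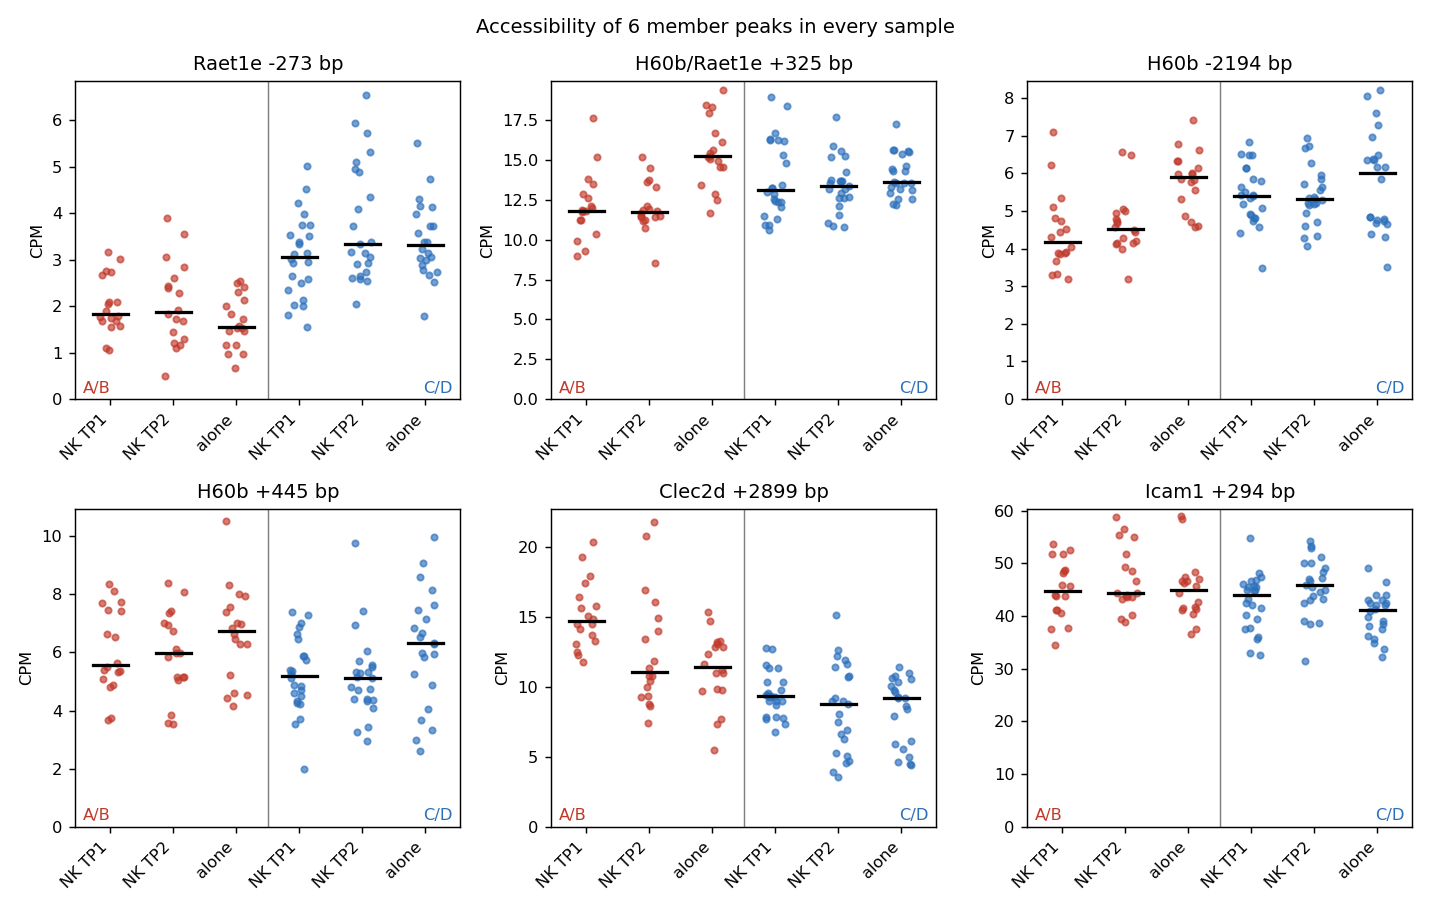
Accessibility in CPM (linear axis from 0) of 6 member peaks in each of 54 A/B and 69 C/D samples, by arm, with points scattered sideways for legibility and black bars at the medians. H60b/Raet1e +325 in A/B has medians of 11.8 (NK TP1), 11.8 (NK TP2) and 15.2 CPM (alone), and Raet1e −273 is lower in A/B than in C/D in all 3 arms.

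The remaining NKG2D ligand peaks did not pass the test in A/B with the main settings. H60b +445 had log2 fold changes of −0.14 ± 0.09 at TP1 and −0.18 ± 0.09 at TP2 in A/B, against −0.22 ± 0.09 (TP1) and −0.29 ± 0.10 (TP2) in C/D. With a loess scaling both A/B values of H60b +445 passed (−0.207 at TP1, edgeR adjusted p = 0.0349, and −0.263 at TP2, 0.017). The TP2 value in C/D passed the adjusted p (0.0128), with 2.94, 5.11 and 9.75 CPM at NK TP2 against 2.61, 6.31 and 9.99 CPM alone, and lost it without the replicate 1 or the replicate 3 libraries (0.239 and 0.218). Raet1d −31 was at −0.14 ± 0.08 and −0.16 ± 0.08 in A/B and at −0.12 ± 0.08 and −0.02 ± 0.09 in C/D at TP1 and TP2, with intervals from −0.32 to 0.14. Ulbp1 +1070 had log2 fold changes of −0.04 (TP1) and −0.06 (TP2) in A/B, against 0.04 (TP1) and −0.07 (TP2) in C/D, with 35.4 ± 5.95 CPM at NK TP1 and 34.5 ± 1.33 CPM at NK TP2 against 36.3 ± 3.35 CPM alone in A/B, and 28.4 ± 5.31 and 26.4 ± 2.05 CPM against 27.5 ± 5.0 CPM in C/D (SD over 6 and 8 combinations). Raet1e −273 was tested in C/D only, at −0.15 ± 0.10 and 0.12 ± 0.10. Raet1e −1933 was at 0.06 ± 0.09 and −0.06 ± 0.09 in A/B and at 0.17 ± 0.07 (adjusted p = 0.0946) and 0.00 ± 0.07 in C/D. In A/B, Raet1e −273 averaged 2.02 ± 0.454 CPM at NK TP1 and 2.05 ± 0.766 CPM at NK TP2, against 1.66 ± 0.288 CPM alone.

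In the joint fits the DNAM-1 ligand promoters gave no call and no value past the adjusted p. Pvr +308 had 16.7 ± 1.09 CPM at NK TP1 and 15.4 ± 0.967 CPM at NK TP2, against 16.3 ± 1.09 CPM alone in A/B, and 16.7 ± 1.46 and 15.8 ± 1.57 CPM against 16.4 ± 1.98 CPM in C/D, with intervals of the log2 fold change from −0.19 to 0.13. Nectin2 −316 had 13.9 ± 0.933 and 13.8 ± 1.87 CPM with NK cells against 12.8 ± 1.82 CPM alone in A/B, and 11.98 ± 1.03 and 12.2 ± 1.97 CPM against 13.3 ± 2.29 CPM in C/D. Its log2 fold changes were 0.10 ± 0.08 and 0.09 ± 0.08 in A/B and −0.16 ± 0.07 at both time points in C/D, and the TP2 value in C/D passed the adjusted p with a loess scaling (−0.19, 0.0263). Pvr −245, near another Pvr start, was at −0.03 ± 0.10 and 0.15 ± 0.10 in A/B and at −0.10 ± 0.07 and −0.08 ± 0.07 in C/D.

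Of the ligands of 2B4 and LFA-1, both passed the adjusted p at TP2 in C/D, where 37.2% of all tested promoter peaks passed by this rule (17.9% higher and 19.3% lower) and 3 of 13 members, 1 higher and 2 lower. Icam1 +294 was the higher one. It had 31.5, 45.8 and 54.3 CPM at NK TP2 (23 samples) against 32.2, 41.2 and 49.1 CPM alone (22 samples) in C/D. The mean was higher with NK cells in 8 of 8 combinations although samples overlapped, and the log2 fold change was 0.16 ± 0.04 (edgeR adjusted p = 0.00103; 0.213 with no filter on low counts). In A/B it was −0.01 ± 0.04 at TP1 and 0.06 ± 0.04 at TP2, and the difference between the pairs did not pass the test (−0.12 ± 0.06 at TP2, adjusted p = 0.142). Cd48 −195 was the lower one besides H60b +445, with 13.6, 20.2 and 26.6 CPM at NK TP2 against 16.9, 23.1 and 28.03 CPM alone in C/D. Its log2 fold change was −0.19 ± 0.06 (adjusted p = 0.00702; 0.129 without the replicate 2 and 0.0712 without the replicate 3 libraries), with a lower mean in 6 of 8 combinations.

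Clec2d, the gene for the ligand of inhibitory NKR-P1B, had the largest positive value among the members in the comparisons of NK with alone. The intronic Clec2d +2899 in A/B had 11.8, 14.7 and 20.4 CPM at NK TP1 (18 samples) and 7.40, 11.1 and 21.8 CPM at NK TP2, against 5.46, 11.4 and 15.4 CPM alone. The mean at TP1 was higher than alone in 6 of 6 combinations, with overlap of samples and a difference of 0.45 ± 0.09 on the log2 scale (edgeR adjusted p = 2.64e-05; 4.69e-06 to 0.0102 under the alternatives), a ratio of 1.37. At TP2 it was 0.14 ± 0.09 and did not pass the test. In A/B a broad peak was called over it in 7 of 18 libraries at NK TP1, 5 of 18 at NK TP2 and 3 of 18 alone. The arm through which it entered the test was not traced, and entry through NK TP1 would favour a higher value there. Its values at TP1 are therefore given as a description. Of the NK markers tested in A/B, Prf1 was also higher at TP1 and lower at TP2 than at TP1 (values above). Eomes, Klrb1c and Tbx21 were at 0.04, −0.03 and −0.08 at TP1. The part of NK cell DNA in the Clec2d result was not tested. Clec2d +2899 was tested in A/B only, and in C/D it averaged 9.49 ± 1.41 CPM at NK TP1 and 8.62 ± 3.03 CPM at NK TP2 against 8.41 ± 2.14 CPM alone. The peak over the start, Clec2d −197, with the ISRE-like letters, had 0.09 ± 0.05 at TP1 in A/B, against 0.16 ± 0.05 in C/D. This C/D value was the only member value past the adjusted p at TP1 there (0.0409; background 9.57%, with 6.18% higher and 3.39% lower), and it lost it when any replicate number was left out (0.0761 to 0.233).

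TP2 was compared with TP1 to see whether member peaks changed as the co-culture went on. No member peak was called in either pair (edgeR and DESeq2 0 of 13 each, with 1 and 6 at an unadjusted p under 0.05), where 0.954% of tested promoter peaks were called in A/B and 0.353% in C/D. By the adjusted p alone, 1 of 13 passed in A/B (background 18.6%) and 3 of 13 in C/D (34.4%). The 1 in A/B was Clec2d +2899, lower at TP2 than at TP1 by a log2 fold change of −0.31 ± 0.08 (adjusted p = 0.00845; 0.158 without the replicate 1 libraries). Those in C/D were Cd48 −195 (−0.19 ± 0.06, adjusted p = 0.00559), Raet1e −1933 (−0.17 ± 0.07, 0.0349) and Raet1e −273 (0.27 ± 0.10, 0.0333). Each of these 3 lost the adjusted p in at least 1 fit without a replicate number, with values of 0.0583 and 0.104 for Cd48, 0.177 and 0.444 for Raet1e −1933 and 0.0768 to 0.24 for Raet1e −273. Over Raet1e −273 a broad peak was called in 12 of 24 C/D libraries at NK TP2, 5 of 24 at NK TP1 and 5 of 23 alone. The arm that brought Raet1e −273 or Clec2d +2899 into the test was not traced. That arm would be favoured as the higher one.

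The comparisons were repeated within each experiment, since experiments can form batches. Over 13 peaks, 3 contrasts and 3 (A/B) or 5 (C/D) experiments there were 312 member values, of which 3 were called higher and 4 lower, while 4.6% (A/B) and 5.24% (C/D) of all values of tested promoter peaks in these fits were called. In experiment 9.7, the one with the longer co-culture, H60b +445 was lower at TP2 in both pairs, by a log2 fold change of −0.59 ± 0.15 in A/B (adjusted p = 0.0134; 2.29% of all tested promoter peaks called lower there) and −0.79 ± 0.18 in C/D (0.000594; 9.04%). In the other experiments it was 0.02 and 0.12 in A/B and −0.60 to 0.24 in C/D. Nectin2 −316 was also called lower at TP2 in C/D in 9.7 (−0.63 ± 0.11, adjusted p = 2.96e-05), against −0.23 to 0.15 in the other 4 experiments. In that experiment the Nectin2 means were 9.90 (C) and 11.4 (D) CPM at NK TP2, against 16.99 (C) and 15.8 (D) CPM alone, and these means alone were the highest of the 8 C/D combinations.

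The other calls within experiments were at Clec2d +2899 and Raet1e −273, and the limit on how these peaks entered the test (above) applies here too. In A/B in experiment 9.7, Clec2d +2899 was higher at TP1 than alone (0.74 ± 0.14, adjusted p = 0.00127; 4.46% of tested promoter peaks called higher) and lower at TP2 than at TP1 (−0.69 ± 0.14, 0.0102; 1.6% called lower), with values of 0.11 and 0.49 at TP1 in experiments 9.5 and 9.6. In C/D in experiment 9.5, Raet1e −273 was higher at TP2 than alone (0.63 ± 0.22, adjusted p = 0.0347; 9.57% called higher) and than at TP1 (0.65 ± 0.22, 0.0211; 10.7%), while in the other 4 experiments its value at TP2 against alone ran from −0.62 to 0.36. Differences between experiments were not tested. H60b/Raet1e +325 in A/B had values of −0.40, −0.17 and −0.47 at TP1 and −0.31, −0.39 and −0.32 at TP2 in experiments 9.5, 9.6 and 9.7. Within single lines, which pool experiments, 0 of 156 member values were called, where 3.21% (A/B) and 1.24% (C/D) of all values were, and H60b/Raet1e +325 was at −0.36 (A) and −0.34 (B) at TP1.

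**Figure D4:**
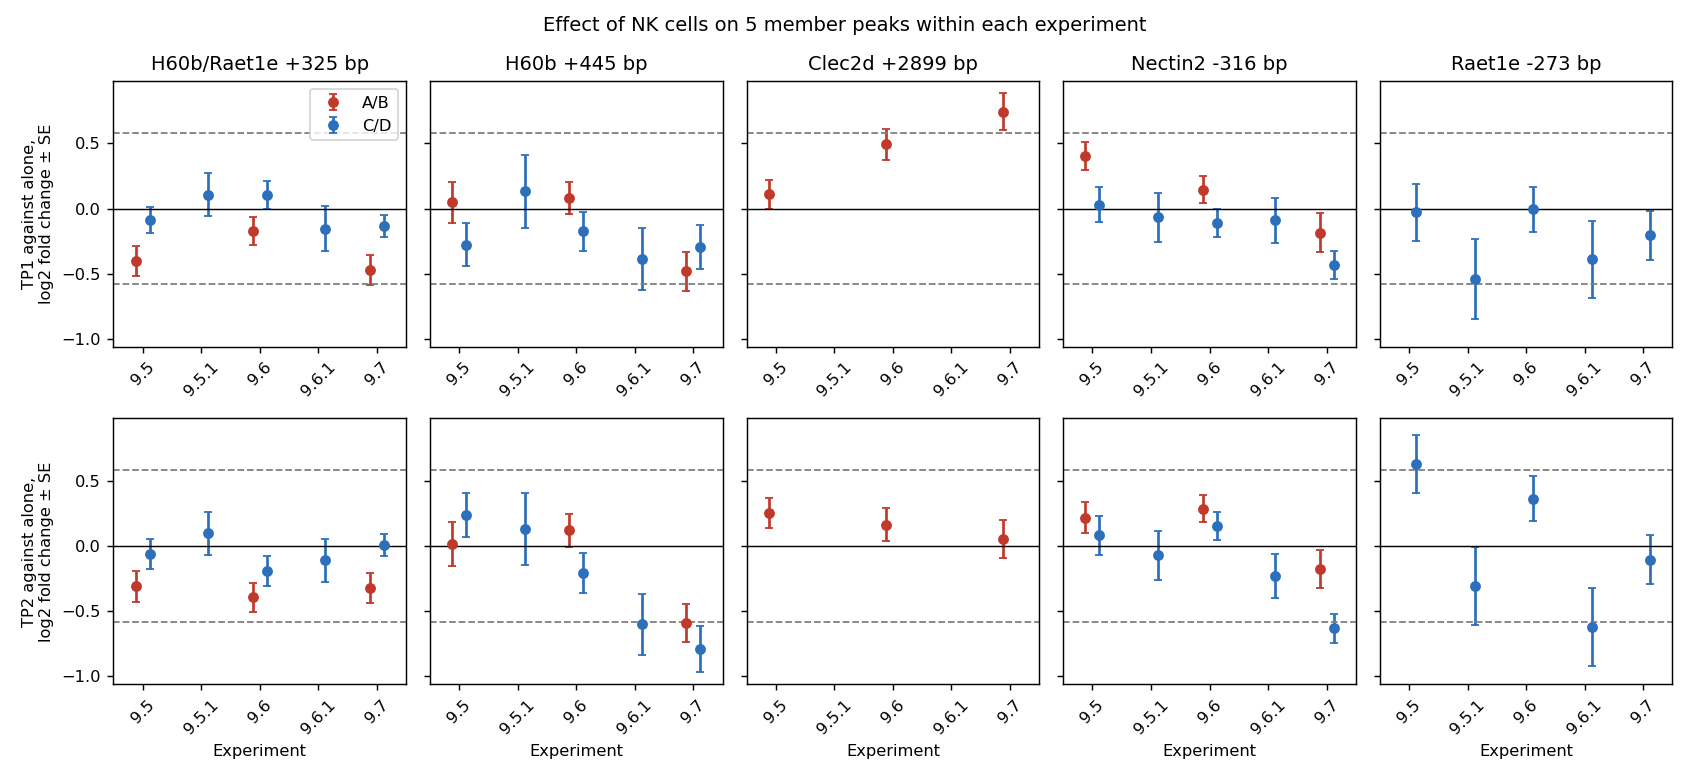
Log2 fold change ± SE of 5 member peaks in B-ALL + NK against B-ALL alone within each experiment, at TP1 (top) and TP2 (bottom), A/B left of C/D, with dashed lines at 0.58 in both directions. H60b +445 lies between −0.79 and 0.24 at TP2, with the lowest values of both pairs in experiment 9.7, while H60b/Raet1e +325 in A/B lies below 0 in all 3 experiments at both time points.

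Related genes were counted from a pair of wider lists. The first held 33 symbols of other NK receptor ligands and adhesion partners, among them further RAE-1, Clr, nectin, ICAM and SLAM family genes, 28 of which had a promoter peak. For each gene in all lists, the tested peak nearest to a start was taken, or the nearest peak where none was tested. So chosen, 21 A/B and 20 C/D peaks were tested, and 0 were called in any of the 4 comparisons of NK against alone. By the adjusted p alone, 1 was higher and 7 lower at TP1 and 2 higher and 3 lower at TP2 in A/B, and 3 higher and 1 lower at TP1 and 5 higher and 6 lower at TP2 in C/D, with medians of 0.02, −0.03, 0.02 and −0.02, where 37.9%, 19.6%, 9.57% and 37.2% of all tested promoter peaks passed in these 4 comparisons. The second list held 12 regulators of NKG2D ligand genes, such as E2f1, Trp53, Atm and Myc. All 12 were tested, 0 were called, and 4, 1, 0 and 4 passed the adjusted p alone in the same order of comparisons. Between A/B and C/D alone, 2 of 21 tested genes of the first list were called, where 12.1% of all tested promoter peaks were, Nectin3 (log2 fold change 1.82, 14.7 CPM in A/B and 4.01 CPM in C/D), which encodes another nectin, and Slamf7 (−0.72, 3.27 and 5.74 CPM), a SLAM family receptor. Nectin3 entered the test through A/B only. These 2 were named after their values were seen.

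Raet1e −273, the only member peak with a call in the joint fits, was compared with all other tested promoter peaks by the Pearson correlation of log2(CPM + 1) over the 42 group means. The most similar were the peaks of Nynrin (r = 0.931), Fhdc1 (0.904) and Rbm20 (0.904). The 42 points come from 4 lines of 2 parents, so they are not independent, and the correlation is given as a description only.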

How the data were processed

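Per the labels, 125 ATAC-seq libraries of B-ALL lines A to D were analysed. According to the methods, the authors aligned reads to GRCm38 with STAR (version not given for this assay in the sources used here), marked duplicates with Picard 2.27.4, called broad peaks with MACS2 2.2.7.1, and named a blacklist of the human build GRCh38, whose effect on a mouse alignment was not tested here. The deposited matrix gives raw counts, the number of read pairs per consensus peak (256400 peaks) from featureCounts 2.0.1, at a minimum overlap fraction of 0.2, without strand and without multi-mapped reads. The sources used here record no correction of read ends for transposase binding. The broad peak lists deposited per library give the −log10 of each q-value, the lowest being 1.0.

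Promoter peaks (64562) had their centre within 3 kb of any GENCODE M21 transcript start. A promoter peak was tested where a broad peak overlapped it in every replicate of at least 1 group and it passed edgeR's count filter, giving 20229 peaks in A/B, 22070 in C/D and 22881 in either. Quasi-likelihood models of edgeR 4.0.16 (R 4.3.3, TMM scaling, limma 3.58.1) were fitted to A/B and C/D apart with a term for each combination of line and experiment. Cultures alone were compared over 40 samples with terms for line and experiment, and the difference between pairs over all 123 samples. Calls needed a Benjamini-Hochberg adjusted p of 0.05 over all tested peaks and an absolute log2 fold change of 0.58. SE was taken as the size of the log2 fold change divided by the root of the F statistic. The common coefficient of biological variation was 0.115 (A/B), 0.126 (C/D) and 0.102 (alone). CPM are on the effective library size. P-values measure the spread between libraries, which may be technical in part, and not between parental lines. The fits were tested on simulated counts.

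All 10 members were named with every peak, together with the 3 peaks most like a called member and any listed gene called in an NK comparison. The members, lists and tests were chosen with earlier results of these data known. Alternatives were DESeq2 1.42.0, no filter, peaks called in every library, a loess offset, all peaks genome-wide, a replicate block, leaving out each replicate number, summed counts, peaks within 1 kb of a start and the adjusted p alone. Fits within each experiment and within each line, and the count over peaks tested in both pairs, were added after the data were seen. One further promoter motif that was searched is not reported here.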

Additional observations from a re-analysis of the deposited data

Results flagged for a closer look

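The effect of NK cells on H60b/Raet1e +325, the peak over a start of the NKG2D ligand genes H60b and Raet1e, differed between the line pairs by the test of the difference itself. Its log2 fold change in A/B minus that in C/D was −0.32 at TP1 (edgeR adjusted p = 0.00634) and −0.29 at TP2 (0.0107), and both comparisons share the B-ALL alone samples. The mean with NK cells was below that alone in 6 of 6 A/B combinations at both time points, and in 5 of 8 C/D combinations at TP1 and 6 of 8 at TP2. The difference lost the adjusted p without the replicate 1 libraries (0.56 and 0.243) and with counts summed per group (0.162 and 0.125), and at TP2 also without the replicate 3 libraries (0.0622) and with no filter (0.0992). B-ALL marker promoters also differed between the pairs, with medians of −0.305 in A/B and 0.04 in C/D at TP1, and their part in the result was not tested.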

How the results depend on the processing

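Of 1224 member log2 fold changes under the alternatives, 1061 kept their direction and their side of the adjusted p, 97 changed sign with neither value significant, 52 lost the adjusted p, 14 gained it and 0 turned round with a significant value. The counts of 0 calls in the 6 NK comparisons, in both differences between pairs and in both comparisons of sister lines were 0 in every alternative that kept the fold threshold. With the adjusted p alone they were 3 and 2 (A/B, TP1 and TP2 against alone), 1 and 3 (C/D), 1 and 3 (TP2 against TP1, A/B and C/D), 1 and 1 (differences between pairs) and 1 and 1 (sister lines). In A/B against C/D alone the count of 1 became 7 with the adjusted p alone, 2 with no filter (Raet1d −2581 added), 0 where only peaks called in every library were tested (8 member peaks, Raet1e −273 not among them), and 1 to 2 when each replicate number was left out, Clec2d +2899 being added without replicate 2. Raet1e −273 stayed called under the other alternatives that tested it, at −0.997 to −0.679. As its entry through C/D favours this direction, these values are a description.

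Replicate numbers did not pair the libraries. Over 120 pairs of libraries with the same number, the correlation of deviations from the group means was −0.474 to 0.509 (median 0.03), 41 were over 0.1, and 46 of 120 correlated best with their own number. With the replicate number as a block, 0 member peaks were called in each NK comparison and each difference between pairs, and the block was not fitted to cultures alone.

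Depth limits what can be said of the low peaks. Raet1e −273 rests on 3 to 36 read pairs per sample in cultures alone, and the 8 untested peaks include H60c with 0 to 10. Additive fits rest mainly on spread within groups, and only 2 parental lines were compared.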
